A study of Mus musculus with 4 samples.

Results

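The collagen genes of mouse were examined in cells of the cultured embryonic kidney sorted by a reporter of Lgr5. Members were all genes named by a probe set with exactly 1 gene symbol of the form Col, number, a, number. This rule found 42 genes on 46 probe sets, of 18820 genes in all, and where a gene had several probe sets the one with the highest mean over all arrays stood for it. A further 2 probe sets name a collagen together with another gene and were left out. Kidney rudiments (metanephroi) of embryos of about day 14 were grown in culture for about 10 days. The labels name the strain as B6.129P2-Lgr5tm1(cre/ERT2)Cle/J, whose Lgr5-EGFP-Ires-CreERT2 allele places green fluorescent protein (GFP) and a tamoxifen-inducible Cre under the control of Lgr5. Kidneys that fluoresced were dissociated enzymatically, and cells were sorted by flow cytometry into a GFP-high fraction, with arrays titled kidney A and kidney B (called high-A and high-B here), and a GFP-negative fraction, with arrays titled kidney B and kidney D (negative-B and negative-D). Both fractions came from kidneys with the same allele, age and culture. Besides the sorted level of GFP the labelled kidneys differ, since kidney B alone is in both groups, so differences within kidney B are also given.

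Collagens are secreted proteins whose chains, rich in glycine, proline and hydroxyproline, wind around each other into a triple helix. Fibrillar collagens such as types I, III and V assemble into the fibres of connective tissue and are made mainly by stromal cells. Type IV collagen forms the sheet of the basement membrane beneath every epithelium, in the kidney first as a network of the alpha1 and alpha2 chains and later, in the glomerulus, of alpha3, alpha4 and alpha5. FACITs (fibril-associated collagens with interrupted triple helices) decorate fibres, type VI forms beaded microfilaments around cells, and the multiplexins, types XV and XVIII, carry sugar side chains and lie in or near basement membranes.

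The deposited values are log2 expression levels of Affymetrix probe sets. Array medians over 35556 probe sets lay between 5.07 and 5.24, and Lgr5 itself, which checks the sort, was 16.4-fold higher in GFP-high cells. The 95th percentile of 979 olfactory receptor genes, 4.30, is used below as a background level. The number of arrays limits the precision, and as the labels do not say whether the kidney letters are separate animals, the spread behind each p-value is that among the 4 arrays alone and may be technical. Markers of the sorted cells moved with the groups: all 6 epithelial and all 9 distal nephron genes were higher in GFP-high cells, while all 9 stromal, 6 cap mesenchyme, 5 podocyte and 7 endothelial genes measured were lower. Of 5 smooth muscle genes 4 were lower and 1 did not pass, and of 6 macrophage genes 1 was lower and 5 did not pass. The summed linear level of the 9 stromal markers was 904 and 1053 in GFP-high against 8158 and 8226 in GFP-negative cells (high-A and high-B, then negative-B and negative-D). Of those 9 genes 3 lay at or below the background level in the GFP-high group, against 0 in the other group. In such bulk samples fewer cells of a type and less RNA per cell cannot be told apart, and the part of cell composition in the results below was not tested.

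Collagen genes were far more often lower than higher in GFP-high cells. Of 42 members, 16 were lower, 1 was higher and 25 did not pass (limma, adjusted p below 0.05 over all 18820 genes). Among all genes tested 19.2% passed, 11.2% as lower and 8.08% as higher, against 38.1% of the collagens that were lower. Differences of at least 2-fold were found in 14 of the lower members, where 6.07% of all genes were lower by that much, and in the higher one, where 2.7% of all genes were. These 14 decreases lay in type VI (4 of 6 lower), the fibrillar class (5 of 11), the FACITs (3 of 8), Col15a1 and Col26a1. Col8a2 and Col13a1 were lower by less than 2-fold, while 0 of 6 type IV chains passed in either direction. The median log2 difference of all collagens was -0.37, against 0.051 for all genes. Median centring of the arrays changed the split over all genes from 1520 higher and 2100 lower to 2122 and 1889, and quantile normalization to 2102 and 1959, while 15 collagens were lower under either. By class the median log2 difference was -3.02 for type VI, -0.39 for the fibrillar genes, -0.12 for type IV and -0.017 for the FACITs, where the last turned positive under both of these scalings.

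**Figure D1:**
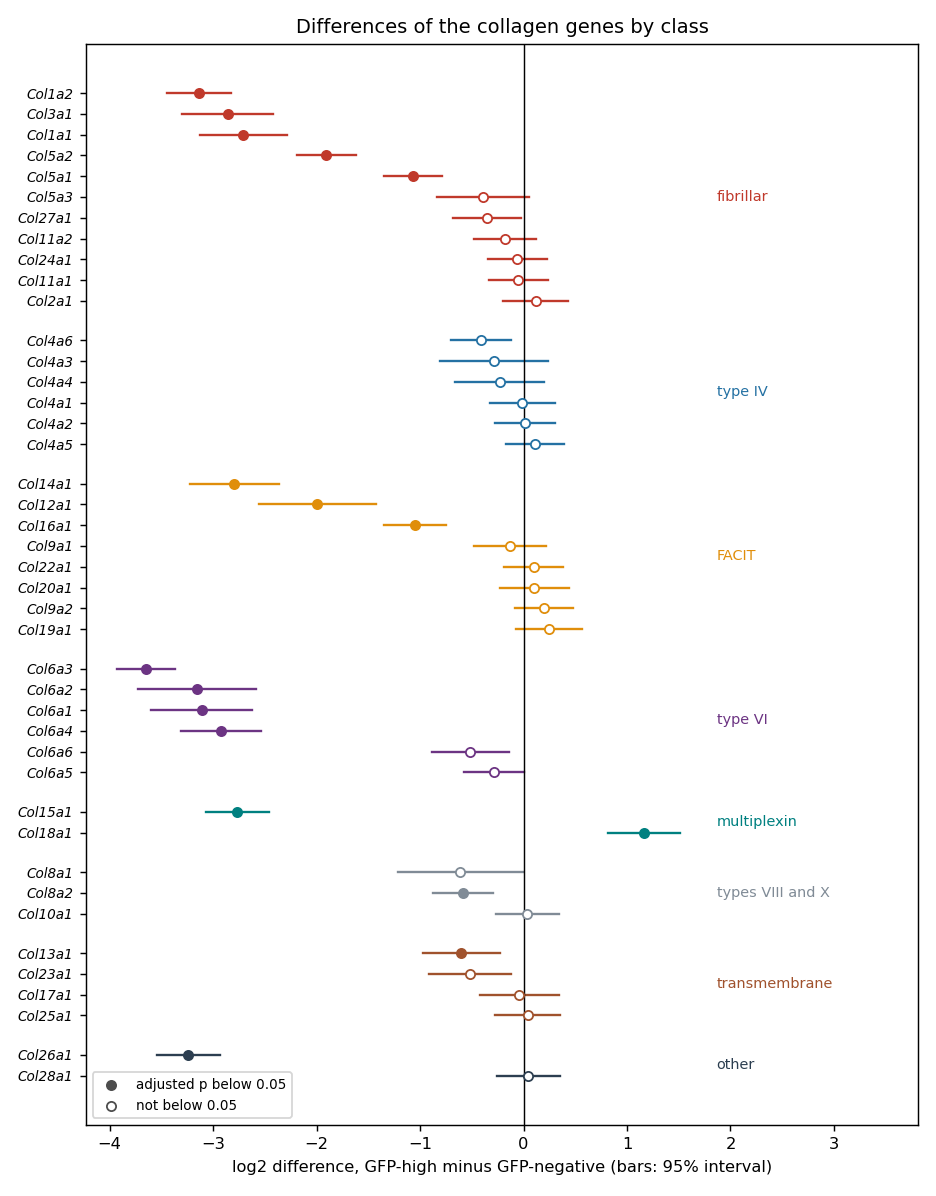
Log2 difference (GFP-high minus GFP-negative, horizontal axis) of each of the 42 collagen genes, grouped by class, from limma on 2 arrays per group. Filled points passed adjusted p below 0.05, bars are 95% intervals of each gene taken alone, and the 14 members lower by at least 2-fold stand to the left of -1, with Col18a1 alone to the right of 1.

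The fibre-forming chains of types I and III were 6.53-fold to 8.78-fold lower in GFP-high cells. Col1a1, which encodes the alpha1 chain of type I, the main collagen of connective tissue, had log2 values of 7.33 and 6.92 on the high-A and high-B arrays against 9.68 and 9.98 on the negative-B and negative-D arrays. Its partner chain gene Col1a2 stood at 6.85 and 7.005 against 9.99 and 10.13. In both genes the groups were separated by more than 2 log2 units, with no overlap. Col1a1 was 6.53-fold lower (log2 difference -2.71 with SE 0.178, limma adjusted p = 7.28e-05) and Col1a2 8.78-fold lower (log2 difference -3.13 with SE 0.131, limma adjusted p = 1.72e-05). Col3a1, whose product forms fibres with type I in distensible tissue, stood at 5.83 and 5.64 against 8.34 and 8.85, 7.26-fold lower (log2 difference -2.86 with SE 0.185, limma adjusted p = 6.82e-05). Both GFP-high arrays still lay above the background level in all 3 genes.

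The regulatory chains of type V, which join type I fibres and limit their width, differed less. Col5a1 stood at 5.03 and 5.07 against 6.15 and 6.09 and was 2.09-fold lower (log2 difference -1.07 with SE 0.119, limma adjusted p = 0.000795). A second probe set of Col5a1, whose GFP-high mean was 4.46 and whose GFP-negative mean was 4.51, had a log2 difference of -0.056 and did not pass, so the call rests on 1 of 2 probe sets. Col5a2, which lies beside Col3a1 on chromosome 1 with 0 protein-coding genes between them in RefSeq, stood at 3.98 and 4.0 against 5.95 and 5.84. Both its GFP-high values were below the background level of 4.30, so the fitted 3.75-fold (log2 difference -1.91 with SE 0.122, limma adjusted p = 6.56e-05) is given together with a bound against that level, at least 3.02-fold lower. The third chain gene, Col5a3, at 4.55 and 4.08 against 4.56 and 4.86, did not pass (adjusted p = 0.225). The cartilage collagens Col2a1, Col11a1 and Col11a2 and the minor fibrillar genes Col24a1 and Col27a1 did not pass either, with log2 differences from -0.35 (Col27a1) to 0.12 (Col2a1), and Col11a1 lay below the background level in both groups.

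**Figure D2:**
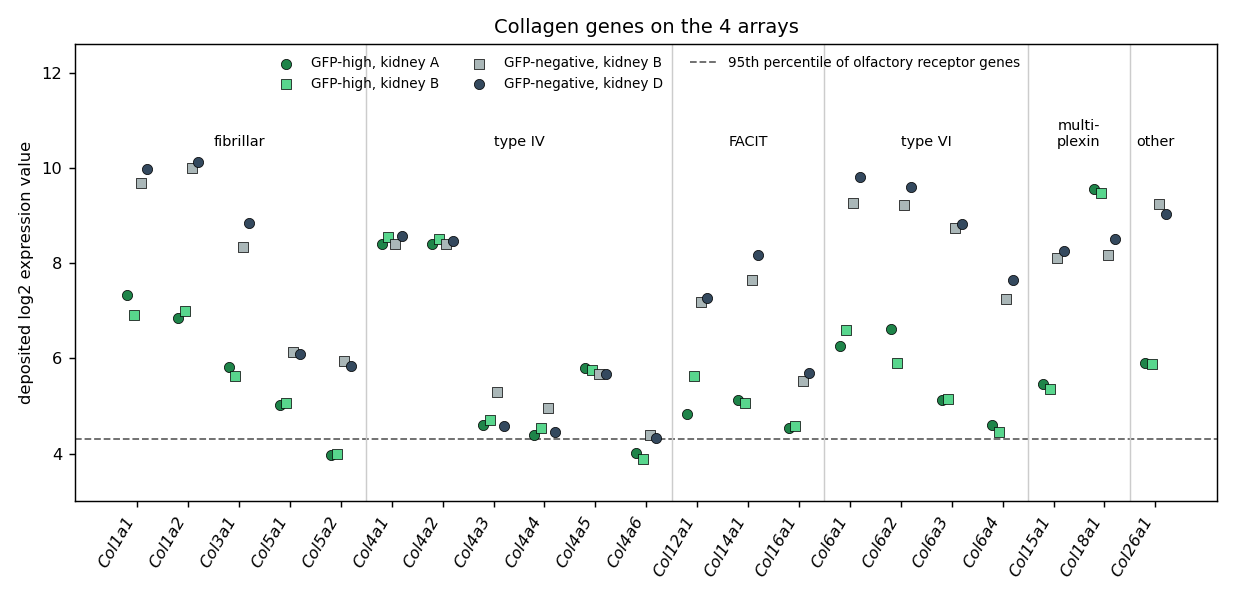
Deposited log2 expression value on each of the 4 arrays for the 15 collagens that passed with at least a 2-fold difference and the 6 type IV chains. Green symbols are GFP-high and grey symbols GFP-negative arrays, and the dashed line is the 95th percentile of olfactory receptor genes, 4.30. The groups separate for the 15 genes, which were picked because they passed on these same arrays. Col18a1 is the reverse of the others, and the symbols of Col4a1 and Col4a2 lie on each other.

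Promoter windows of Col1a2 and Col3a1, from types I and III, are shown because both genes were lower together. The windows hold the 250 bases before the RefSeq transcription start (GRCm38.p6), 5′ to 3′ in the direction of the gene, with matches on either strand to 3 motifs in capitals: TATAAA (the TATA box), CCAAT (the CCAAT box) and GGGCGG (the GC box).
Col1a2, chr6:4505368-4505617, plus strand: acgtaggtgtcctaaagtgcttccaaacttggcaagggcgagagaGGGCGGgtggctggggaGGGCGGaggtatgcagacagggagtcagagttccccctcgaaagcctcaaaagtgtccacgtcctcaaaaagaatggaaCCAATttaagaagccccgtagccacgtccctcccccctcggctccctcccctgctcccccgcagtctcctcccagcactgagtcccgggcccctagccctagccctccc
Col3a1, chr1:45311288-45311537, plus strand: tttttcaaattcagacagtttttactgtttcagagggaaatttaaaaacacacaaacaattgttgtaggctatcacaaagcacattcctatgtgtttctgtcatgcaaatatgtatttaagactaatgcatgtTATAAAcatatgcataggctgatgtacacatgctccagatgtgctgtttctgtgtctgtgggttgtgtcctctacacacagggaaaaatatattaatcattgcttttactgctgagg
Col1a2 has a CCAAT match starting 109 bases and GGGCGG matches starting 205 and 188 bases before the start, and its window is 62.0% G and C. Col3a1 has a TATAAA match 117 bases before the start, none of the other motifs, and 35.2% G and C. These 2 windows share none of the searched motifs, and no window of Col1a1 is shown. Of 32851 RefSeq windows of this length, 12.4% hold TATAAA, 33.8% CCAAT and 32.7% GGGCGG on either strand, while of 37 windows of 34 collagen genes 5, 12 and 21 do. The lower collagens have 12 of these windows, of which 2 hold TATAAA, 3 CCAAT and 7 GGGCGG. No matches overlap in the windows shown, and a match is a description of letters, not of a binding site.

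Type VI collagen had the lowest median of the classes. Its classical heterotrimer is built of the alpha1, alpha2 and alpha3 chains, and all 3 genes were lower by more than 8-fold. Col6a3, whose long chain completes the trimer, stood at 5.14 and 5.14 on the high-A and high-B arrays against 8.74 and 8.83 on the negative-B and negative-D arrays. It was 12.5-fold lower (log2 difference -3.65 with SE 0.12, limma adjusted p = 1.26e-05), the 41st largest decrease of 18820 genes. Col6a1 stood at 6.27 and 6.60 against 9.27 and 9.82 and Col6a2 at 6.61 and 5.91 against 9.23 and 9.61. Col6a1 was 8.64-fold lower (log2 difference -3.11 with SE 0.207, limma adjusted p = 7.50e-05) and Col6a2 8.91-fold lower (log2 difference -3.16 with SE 0.242, limma adjusted p = 0.000136). The 2 GFP-high arrays were nearly equal in Col6a3, whereas in Col6a2 high-A was the higher one and in Col6a1 high-B, and no gene's groups overlapped.

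The alternative chains alpha4, alpha5 and alpha6 of type VI can each take the place of alpha3, and their genes lie side by side on chromosome 9. Col6a4 stood at 4.60 and 4.46 against 7.25 and 7.65, 7.58-fold lower (log2 difference -2.92 with SE 0.164, limma adjusted p = 3.83e-05), a difference close in size to that of the alpha1 chain. Its neighbours did not pass on the probe sets with the higher mean: Col6a5 stood at 4.40 and 4.44 against 4.78 and 4.63 (adjusted p = 0.181) and Col6a6 at 4.26 and 4.47 against 4.72 and 5.04 (adjusted p = 0.0641). The other probe set of Col6a5 differed, with a GFP-high mean of 3.44, below the background level, against 4.85 (log2 difference -1.41, limma adjusted p = 0.000405 when all probe sets were tested). That of Col6a6 was below the background level in both groups (3.55 against 4.09). This probe set too passed as lower when all probe sets were tested (log2 difference -0.54, limma adjusted p = 0.0486). With the mean of each gene's probe sets, Col6a5 and Col6a6 passed as lower (adjusted p = 0.00292 and 0.0295), although in the main test they had not.

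The multiplexins moved in opposite directions. Col18a1, whose product is a heparan sulfate proteoglycan of epithelial and vascular basement membranes and the source of the fragment endostatin, stood at 9.55 and 9.47 on the high-A and high-B arrays against 8.18 and 8.51 on the negative-B and negative-D arrays. It was 2.25-fold higher (log2 difference 1.17 with SE 0.148, limma adjusted p = 0.00146), with no overlap of the groups. In the main fit it was the only collagen called higher. Its call was lost without the high-A array (adjusted p = 0.0793) or the high-B array (adjusted p = 0.0667) and kept without either GFP-negative array, with log2 differences of 1.003 to 1.33 over these fits. Col15a1, whose product links basement membranes to the fibres beneath and gives the related fragment restin, stood at 5.47 and 5.36 against 8.10 and 8.26 and was 6.81-fold lower (log2 difference -2.77 with SE 0.129, limma adjusted p = 2.10e-05).

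Col18a1 shares its stretch of chromosome 10 with genes that went the other way: Col6a2 and Col6a1 are direct neighbours, and 2 protein-coding genes lie between Col6a1 and Col18a1 in RefSeq. For this reason their promoter windows are set side by side, again 250 bases before the start with the same motifs in capitals. Col6a2 and Col18a1 have 2 starts each in the table. The outer one is shown for Col6a2, and both are shown for Col18a1, whose inner start lies within the gene.
Col6a1, chr10:76726045-76726294, minus strand: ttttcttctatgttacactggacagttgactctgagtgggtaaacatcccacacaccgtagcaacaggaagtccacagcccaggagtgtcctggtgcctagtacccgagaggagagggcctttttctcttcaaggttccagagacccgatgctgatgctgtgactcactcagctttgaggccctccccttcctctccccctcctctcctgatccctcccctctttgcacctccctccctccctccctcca
Col6a2, chr10:76623631-76623880, minus strand, outer start: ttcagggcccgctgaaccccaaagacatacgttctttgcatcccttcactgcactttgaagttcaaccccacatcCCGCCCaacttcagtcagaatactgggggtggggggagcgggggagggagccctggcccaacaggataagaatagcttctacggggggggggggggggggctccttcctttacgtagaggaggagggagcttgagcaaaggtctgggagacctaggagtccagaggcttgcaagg
Col18a1, chr10:77166531-77166780, minus strand, outer start: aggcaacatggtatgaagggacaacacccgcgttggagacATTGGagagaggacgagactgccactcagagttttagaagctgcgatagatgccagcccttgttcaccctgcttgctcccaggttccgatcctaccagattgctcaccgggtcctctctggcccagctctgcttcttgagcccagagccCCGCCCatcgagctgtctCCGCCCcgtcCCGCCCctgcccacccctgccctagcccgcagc
Col18a1, chr10:77113706-77113955, minus strand, inner start: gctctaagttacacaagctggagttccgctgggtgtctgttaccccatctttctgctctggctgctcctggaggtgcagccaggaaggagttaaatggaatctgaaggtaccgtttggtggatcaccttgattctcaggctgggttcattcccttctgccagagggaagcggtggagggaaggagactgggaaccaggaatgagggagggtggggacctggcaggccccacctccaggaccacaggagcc
The outer window of Col18a1 has 3 matches to GGGCGG on the opposite strand within 61 bases of the start and a CCAAT match on that strand 210 bases before it. Its inner window and that of Col6a1 hold none of the motifs, and the Col6a2 window holds a GGGCGG match on the opposite strand 175 bases before the start. Which start the probe set of Col18a1 reads was not examined here.

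Type IV collagen, the sheet of the basement membrane, was the class with no call. Col4a1, which with Col4a2 encodes the chains of the network present under every epithelium and endothelium, stood at 8.40 and 8.55 on the high-A and high-B arrays against 8.39 and 8.58 on the negative-B and negative-D arrays. Col4a2 stood at 8.40 and 8.51 against 8.41 and 8.46. The groups overlapped in both genes, and on either side high-B and negative-D held the higher value of their group. The log2 difference was -0.012 for Col4a1 (95% interval -0.33 to 0.30, limma adjusted p = 0.968) and 0.016 for Col4a2 (-0.27 to 0.30, adjusted p = 0.95). These intervals reach 1.26-fold and 1.23-fold at their far ends. The chains of types I, III and VI that passed were lower by 6.53-fold to 12.5-fold, while Col6a5 and Col6a6 did not pass. Col4a1 and Col4a2 lie next to each other on chromosome 8, as do Col4a3 and Col4a4 on chromosome 1 and Col4a5 and Col4a6 on X.

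The chains of the mature glomerular network were dim. Col4a3 stood at 4.60 and 4.71 against 5.29 and 4.59 and Col4a4 at 4.40 and 4.55 against 4.96 and 4.45. In both, the negative-B array was the highest and the negative-D array lay within or below the GFP-high values, so the groups overlapped. Neither passed (log2 difference -0.28, 95% interval -0.81 to 0.24, for Col4a3 and -0.23, -0.66 to 0.20, for Col4a4). The summed linear level of 5 podocyte markers was also higher on the negative-B array (3901) than on the negative-D array (2507), with 185 and 438 on the high-A and high-B arrays. Podocytes are the main source of these chains, and their part in these values was not tested. Col4a5 stood at 5.80 and 5.77 against 5.68 and 5.67 and did not pass (log2 difference 0.11, 95% interval -0.17 to 0.39). Col4a6, at 4.01 and 3.90 against 4.40 and 4.34, was below the background level in GFP-high cells and missed the threshold (adjusted p = 0.0575), but passed as lower after cyclic loess normalization (adjusted p = 0.0315).

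Of 8 measured FACITs, Col14a1, Col12a1 and Col16a1 were lower and 5 did not pass. Col14a1, whose product coats type I fibres, stood at 5.14 and 5.07 on the high-A and high-B arrays against 7.64 and 8.16 on the negative-B and negative-D arrays, 6.94-fold lower (log2 difference -2.79 with SE 0.184, limma adjusted p = 7.22e-05). Col12a1, the related collagen of dense and growing connective tissue, stood at 4.84 and 5.63 against 7.19 and 7.27, 3.98-fold lower (log2 difference -1.99 with SE 0.241, limma adjusted p = 0.00116). In Col12a1 the high-B array was well above the high-A array, and the call was lost without the negative-B array (adjusted p = 0.0567) or the negative-D array (adjusted p = 0.0593). The summed linear level of 5 smooth muscle markers, 1 of 8 marker lists, was higher on high-B than on high-A, 1253 against 416. The stromal (1053 against 904), podocyte, cap mesenchyme, endothelial, macrophage and epithelial sums were also higher on high-B than on high-A. Only the distal nephron sum was lower there. In the GFP-negative group the smooth muscle sum was much higher on negative-B than on negative-D. Col12a1 stood at 7.19 on negative-B and 7.27 on negative-D. The part of any of these cell types in the Col12a1 values was not tested. Col16a1 stood at 4.53 and 4.59 against 5.52 and 5.70 and was 2.07-fold lower (log2 difference -1.05 with SE 0.129, limma adjusted p = 0.00123), a call lost without the high-A array (adjusted p = 0.0579) or the high-B array (adjusted p = 0.0507). Col9a1 and Col9a2, which coat the type II fibres of cartilage, and Col19a1, Col20a1 and Col22a1 had log2 differences between -0.13 (Col9a1) and 0.24 (Col19a1), and Col19a1 lay below the background level in both groups.

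Outside these classes Col26a1 was lower by more than any collagen but Col6a3. It encodes a small secreted collagen described in reproductive tissue. Its log2 values were 5.90 and 5.89 on the high-A and high-B arrays against 9.23 and 9.03 on the negative-B and negative-D arrays, with each group's arrays close together and a wide gap between the groups. It was 9.46-fold lower (log2 difference -3.24 with SE 0.129, limma adjusted p = 1.66e-05) and ranked 85th among all decreases. Col13a1, a transmembrane collagen of cell contacts, stood at 4.45 and 4.29 against 4.79 and 5.15, 1.52-fold lower (log2 difference -0.60 with SE 0.158, limma adjusted p = 0.0373). This call was lost after median centring (adjusted p = 0.0671) and quantile normalization (adjusted p = 0.0841), with the replicate number as a block (adjusted p = 0.0743) and without each of the 4 arrays in turn (adjusted p 0.0708 to 0.246). Col8a2 also passed (log2 difference -0.59, adjusted p = 0.015), with both groups below the background level, at 3.43 and 3.50 against 3.99 and 4.11, so no fold is given. It did not pass without any 1 of the 4 arrays (adjusted p 0.0906 to 0.135).

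The 25 collagens that did not pass spanned log2 differences from -0.61 (Col8a1) to 0.24 (Col19a1), with 15 negative and 10 positive. Of these, 4 lay at or below the background level in both groups (Col10a1, Col11a1, Col19a1 and Col28a1). Col8a1, a network collagen of vessels, stood at 4.03 and 4.82 against 5.20 and 4.87, where the high-B array lay almost level with the negative-D array. Col23a1, a transmembrane collagen, stood at 5.49 and 5.48 against 6.22 and 5.77 (adjusted p = 0.0805). The transmembrane genes Col17a1 and Col25a1 had log2 differences of -0.04 and 0.039.

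The 4 arrays can be read as 2 pairs that share no array, GFP-high against GFP-negative within kidney B and GFP-high of kidney A against GFP-negative of kidney D. All 16 lower members had a negative difference in both pairs. The calls come from these same arrays, and the main difference is the mean of the 2 pair differences. This agreement is therefore a description, not a replication. How many of all genes share a sign in both pairs was not counted. The 14 members lower by at least 2-fold ranged from -3.60 (Col6a3) to -0.93 (Col16a1) within kidney B and from -3.69 (Col6a3) to -1.06 (Col5a1) between kidneys A and D. The pairs differed most for Col6a1 (-2.67 within kidney B against -3.55) and Col12a1 (-1.56 against -2.43), both by less than 1 log2 unit. Col18a1 was higher in both pairs (1.29 and 1.04). Of the 25 members that did not pass, 15 had the same sign in both. With each of the 4 arrays left out in turn 13 collagens passed as lower each time, and 12 of the 16 passed in all 4 of these fits: Col1a1, Col1a2, Col3a1, Col5a1, Col5a2, Col6a1, Col6a2, Col6a3, Col6a4, Col14a1, Col15a1 and Col26a1.

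**Figure D3:**
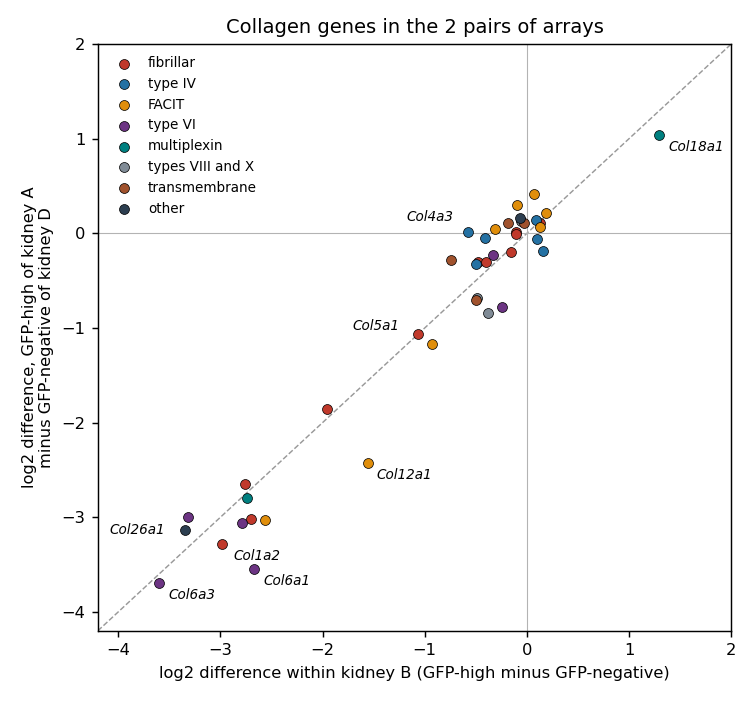
Log2 difference of the 42 collagen genes within kidney B (horizontal axis) against that between the high-A array and the negative-D array (vertical axis), coloured by class. The dashed line marks equal differences. The 14 members lower by at least 2-fold lie at the lower left, and Col18a1 lies alone at the upper right. The type IV chains range from -0.58 (Col4a3) to 0.16 (Col4a1) within kidney B. Between high-A and negative-D they range from -0.33 (Col4a6) to 0.14 (Col4a5).

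Genes that make, export, finish and bind collagen were lower too, though not throughout. Of 43 measured genes on 5 lists, 20 were lower, 3 higher and 20 did not pass (limma, against 11.2% lower and 8.08% higher of all genes), with a median log2 difference of -0.40. The count of 20 became 11 without high-A, 12 without high-B, 14 without negative-B and 11 without negative-D. The count of 3 higher became 0, 1, 0 and 0 in the same order. Of the 20 lower genes 10 passed with each array left out. The 20 that did not pass had log2 differences from -0.42 (Adamts3) to 0.64 (Itga1).

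**Figure D4:**
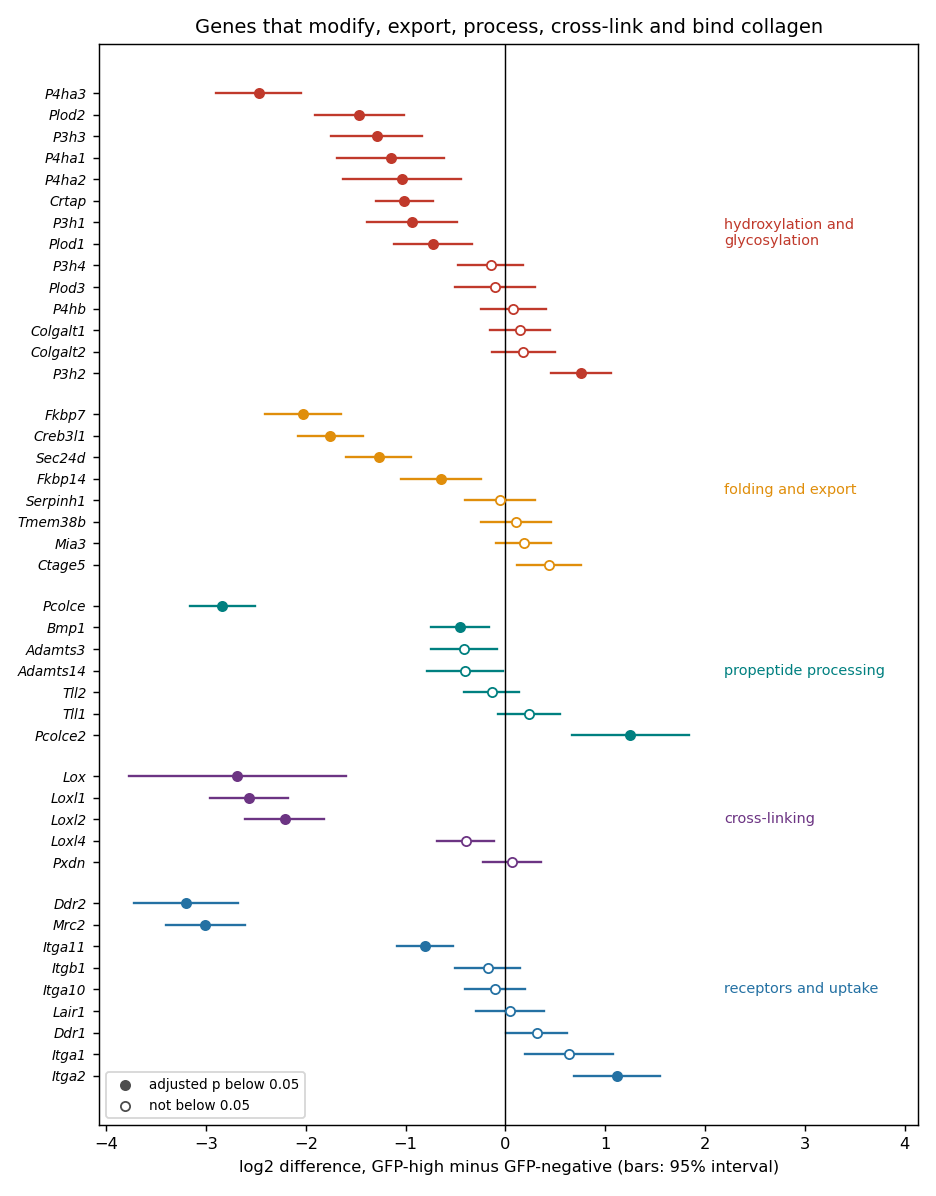
Log2 difference (GFP-high minus GFP-negative, horizontal axis) of the 43 measured genes of collagen modification, folding and export, propeptide processing, cross-linking and reception, with 95% intervals of each gene taken alone. Filled points passed adjusted p below 0.05: 20 stand left of 0, and P3h2, Pcolce2 and Itga2 stand right of it.

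Of 14 genes of collagen hydroxylation and glycosylation, 8 were lower, 1 higher and 5 not passing. P4ha3, a catalytic subunit of prolyl 4-hydroxylase, stood at 3.96 and 4.47 against 6.70 and 6.69, which gives at least 5.25-fold lower against the background level (limma adjusted p = 0.000105). Plod2, the lysyl hydroxylase of the telopeptides that form cross-links, was 2.76-fold lower at 7.60 and 7.29 against 8.68 and 9.15 (log2 difference -1.47 with SE 0.189, limma adjusted p = 0.00157). P3h3, a prolyl 3-hydroxylase family member, was 2.45-fold lower at 6.45 and 6.75 against 7.65 and 8.14, and P4ha1, a further catalytic subunit, 2.22-fold lower at 8.02 and 7.60 against 8.66 and 9.27. Plod2 lost its call without the high-A or the high-B array (adjusted p = 0.0677 and 0.0873). P3h3 and P4ha1 did not pass without either of these or the negative-D array (adjusted p up to 0.123 and 0.194). In the other direction P3h2, a prolyl 3-hydroxylase whose substrates include type IV collagen, was 1.69-fold higher at 11.10 and 10.91 against 10.27 and 10.22 (log2 difference 0.76 with SE 0.129, limma adjusted p = 0.00588), though it did not pass without any 1 of the arrays (adjusted p 0.0528 to 0.0868). It was named after its value was seen.

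In folding and export, 4 of 8 genes were lower, 0 higher and 4 did not pass. Fkbp7, a prolyl isomerase of the endoplasmic reticulum, stood at 6.46 and 6.66 against 8.77 and 8.41 and was 4.09-fold lower (log2 difference -2.03 with SE 0.161, limma adjusted p = 0.000155). Creb3l1, a transcription factor of the secretory pathway known to drive type I collagen in bone, was 3.38-fold lower at 6.48 and 6.29 against 8.04 and 8.23, and Sec24d, a coat component of the vesicles that carry procollagen, 2.41-fold lower at 7.01 and 7.24 against 8.47 and 8.32. These 3 passed with each array left out. Serpinh1, the collagen chaperone Hsp47, had a log2 difference of -0.055 (95% interval -0.41 to 0.30), and P4hb, the shared beta subunit of prolyl 4-hydroxylase, 0.079 (-0.24 to 0.40). Both were chosen after their values were seen.

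Propeptide processing had 2 of 7 genes lower, 1 higher and 4 not passing. Pcolce, the enhancer of the proteinase that trims fibrillar procollagens, stood at 7.19 and 7.47 against 10.17 and 10.17 and was 7.14-fold lower (log2 difference -2.84 with SE 0.14, limma adjusted p = 2.44e-05). Its paralogue Pcolce2 went the other way at 6.27 and 5.67 against 4.44 and 5.0, 2.38-fold higher (log2 difference 1.25 with SE 0.249, limma adjusted p = 0.0116), and did not pass without any 1 of the arrays (adjusted p 0.0634 to 0.193). Bmp1, the proteinase itself, was 1.37-fold lower, and lost its call likewise (adjusted p 0.107 to 0.214). Adamts3, an N-proteinase, did not pass on the probe set with the highest mean, but 10 of its 16 probe sets passed as lower when all were tested.

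Of 5 cross-linking genes 3 were lower, all of them lysyl oxidases, and 2 did not pass. Loxl1 stood at 6.01 and 6.42 against 8.86 and 8.72 and was 5.94-fold lower (log2 difference -2.57 with SE 0.165, limma adjusted p = 6.64e-05). Loxl2 stood at 5.55 and 5.95 against 8.07 and 7.86, 4.63-fold lower (log2 difference -2.21 with SE 0.168, limma adjusted p = 0.000129). A second probe set of Loxl2, below the background level in both groups, did not pass (log2 difference -0.086), and with the mean of both probe sets the log2 difference of Loxl2 was -1.15 (limma adjusted p = 0.000661). Lox, the founding member, varied more between the GFP-high arrays, at 4.88 and 6.54 against 8.26 and 8.54. It was 6.44-fold lower (log2 difference -2.69 with SE 0.461, limma adjusted p = 0.00605), and without the negative-B or the negative-D array it did not pass (adjusted p = 0.121 and 0.145). Its log2 difference was -1.86 without the high-A array, -3.51 without the high-B array and -1.72 within kidney B. Pxdn, the peroxidasin that cross-links type IV collagen, had a log2 difference of 0.066 (95% interval -0.22 to 0.35) and was named after its value was seen.

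Receptor and uptake genes for collagen had 3 of 9 lower, 1 higher and 5 not passing, against 11.2% lower and 8.08% higher of all genes. Ddr2, a tyrosine kinase receptor for fibrillar collagen on mesenchymal cells, stood at 5.49 and 5.11 against 8.20 and 8.80 and was 9.22-fold lower (log2 difference -3.20 with SE 0.222, limma adjusted p = 8.77e-05). Mrc2, which takes up collagen for breakdown, stood at 4.60 and 4.98 against 7.66 and 7.93, 8.04-fold lower (log2 difference -3.01 with SE 0.169, limma adjusted p = 3.90e-05). Itga2, the collagen-binding integrin subunit of epithelia and platelets, was 2.17-fold higher at 7.52 and 6.997 against 6.14 and 6.14 (log2 difference 1.12 with SE 0.183, limma adjusted p = 0.00492), a call kept without the high-B array (adjusted p = 0.0261) and lost without any 1 of the other arrays (adjusted p 0.0535 to 0.105). Ddr1, the epithelial counterpart of Ddr2, was among the 5 that did not pass, with a log2 difference of 0.31 and limma adjusted p = 0.158.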

How the data were processed

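Total RNA of sorted cells was labelled with biotin and hybridised to 4 Affymetrix arrays, 2 per group, per the labels. The deposited table holds log2 expression values of 35556 probe sets on a log2 scale as judged from the values, and the authors' background correction, summarization and normalization are not given in the sources available for this work. The deposited log2 values were used as they stand.

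Of the probe sets, 21218 have 1 gene symbol in the platform annotation, 1881 have several and 12457 have none. RefSeq (GRCm38.p6) held 21185 of the single-gene probe sets and changed 0 symbols. One probe set per gene (highest mean over the 4 arrays; 1386 genes had several) left 18820 genes, which were fitted with limma 3.58.1 in R 4.3.3 (lmFit and eBayes, group only, prior degrees of freedom 5.11, residual 2, two-sided) and adjusted by Benjamini-Hochberg at 0.05. Confidence intervals are 95% and not adjusted. A fold against the background level takes the higher of that level and the dim group's mean. On simulated data with 200 changed genes of 18820, in 10 sets, 74.9% of changes of log2 size 1 and 99.1% of size 2 were found, with 5.57% false calls. The simulation drew its variances from the fitted model, with independent normal noise and no kidney effect. It therefore checks the fit under its own assumptions, and does not give the error rate on these arrays, where 19.2% of genes passed.

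Every collagen was accounted for, with array values for those past 0.05 and a log2 difference of at least 1 and for all chains of types I, III, IV and VI. On the pathway lists up to 4 passing genes of that size were named by rule. Bmp1, Adamts3 and Ddr1 were described outside that rule, as were P3h2, Serpinh1, P4hb and Pxdn. The members and lists were chosen with earlier results of these data known. Replicate numbers and kidney letters in the labels pair the arrays differently, and the labels do not say which marks a shared source, so the main fit had no block. Deviations of same-numbered arrays correlated at -0.20, which with 2 arrays per group is the same size with a positive sign for the pairing that joins the arrays of kidney B. Both pairings were fitted as alternatives. Alternatives changed the normalization, the filter, the probe set rule, the variance model, the block and the arrays included.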

Additional observations from a re-analysis of the deposited data

How the results depend on the processing

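The main counts were 16 collagens lower and 1 higher, and 20 pathway genes lower and 3 higher, and 15 of the 16 lower collagens passed in every alternative that kept all 4 arrays and could test them. Quantile normalization gave 2 higher collagens and medians of -0.24 (fibrillar), 0.11 (FACIT) and -0.19 (all collagens), against -0.39, -0.017 and -0.37. Centring each array on its median, which moved the median of all genes from 0.051 to 0.15, gave -0.30, 0.080 and -0.28 for the same medians and 5 higher pathway genes, as did an intensity trend in the variance (5). The FACIT median thus has no stable sign. Leaving out genes below the 25th percentile moved it to -0.13. Leaving out those below the median kept 13 collagens, 10 of them lower, with medians of -2.86 (fibrillar), -2.39 (FACIT), -3.16 (type VI) and -2.79 (all), since this removes most dim members. Kidney B alone gave -0.48, -0.20 and -2.73 for the fibrillar, FACIT and type VI medians. The cause of the other shifts was not tested.

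With each array left out in turn, 13 collagens were lower and 0 to 1 higher, and 11 to 14 pathway genes lower and 0 to 1 higher. Medians ranged over -0.63 to -0.23 (fibrillar), -0.16 to 0.071 (FACIT) and -3.24 to -2.78 (type VI). The lone array of a group is then assumed to vary like the other group's. With the replicate number as a block (a paired fit), 15 collagens were lower and 1 higher, 17 and 3 pathway genes, and 1819 and 1140 of all genes. Pairing the arrays of kidney B instead, chosen after seeing the data, gave 17 lower and 1 higher collagens, 20 and 4 pathway genes, and 2339 and 1763 of all genes. The kidney letter as a random block could not be fitted, as 3 letters cover 4 arrays. No direction of a called gene reversed under the alternatives run.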
